A study of Mus musculus with 2 samples.

Results

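The miR-148 and miR-152 family of the mouse consists of 3 microRNA genes, Mir148a, Mir148b and Mir152, and their counts were examined here in small RNA libraries of the mouse heart. The members were chosen by gene name in the GENCODE M21 annotation, and they are 3 of the 2202 microRNA genes counted in each library. The family was picked with earlier results of these libraries known, among them the large difference of Mir148a between the libraries, so that difference is described below and not tested. The material was heart tissue of male B6CASTF1/J mice, 10 days old, a first-generation cross of the laboratory strain C57BL/6J with the wild-derived CAST strain. Total RNA was restricted to short fragments and sequenced as 2 libraries, whose labels number separate males, beside a common donor identifier, and give biological replicates 1 and 2 of 1 group. No treatment, other genotype, other age or other tissue was part of the comparison, so the data show levels in the whole heart and how far those levels differed between the libraries.

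A microRNA is cut from a hairpin precursor as a short RNA of either the 5p or the 3p arm, and it guides the silencing complex to messenger RNAs that pair with its seed, bases 2 to 8. Genes whose microRNAs have the same seed form a family, because their predicted targets largely overlap. The miR-148 and miR-152 family is best known for repressing the maintenance DNA methyltransferase Dnmt1, and miR-148a is known as an abundant microRNA of the liver and as a regulator of B cell tolerance and of cholesterol uptake. A tissue library mixes cardiomyocytes, endothelial cells, fibroblasts, mural cells and blood cells, so fewer cells of a type and less RNA per cell cannot be told apart.

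The mature 3p sequences are shown first because they define the family and set how well reads of its members can be told apart. They are RefSeq sequences of build GRCm38.p6, written 5′ to 3′ with the seed in capitals.
miR-148a-3p: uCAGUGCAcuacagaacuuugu
miR-148b-3p: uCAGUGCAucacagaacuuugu
miR-152-3p: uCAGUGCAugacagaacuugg
All 3 begin with u and have the same seed, and among the 1678 mature sequences matched to counted genes only these 3 have it. Counted from base 1 at the 5′ end, miR-148b-3p differs from miR-148a-3p by C9U and U10C, just after the seed. miR-152-3p differs from miR-148a-3p by C9U, U10G and U20G, and it is 21 bases long where the others have 22. miR-148b-3p and miR-152-3p differ by C10G and U20G. Bases 9 and 10 are thus the only ones that separate a 3p read of Mir148a from one of Mir148b.

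The 5p arms are less alike, and are shown because reads of both arms enter the same count.
miR-148a-5p: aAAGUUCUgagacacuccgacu
miR-148b-5p: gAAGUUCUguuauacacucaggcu
miR-152-5p: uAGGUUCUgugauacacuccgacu
miR-148a-5p and miR-148b-5p have the same seed, while miR-152-5p differs from miR-148a-5p within it by A3G. Over the 22 bases compared without gaps, miR-148b-5p differs from miR-148a-5p at 9 positions and miR-152-5p at 10. The deposited counts are per hairpin gene, so the arms were not separated, and every level below is the sum over both arms.

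The hairpins of GENCODE M21 hold the arms in the places shown here in capitals, with the 3p arm as the second block.
Mir148a: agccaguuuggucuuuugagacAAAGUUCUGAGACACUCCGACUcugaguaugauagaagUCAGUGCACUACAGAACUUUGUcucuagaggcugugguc
Mir148b: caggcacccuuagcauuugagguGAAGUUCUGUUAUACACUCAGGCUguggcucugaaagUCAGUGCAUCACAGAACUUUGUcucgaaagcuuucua
Mir152: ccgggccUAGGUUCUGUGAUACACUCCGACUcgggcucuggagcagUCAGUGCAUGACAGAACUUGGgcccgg
The hairpins of Mir148a and Mir148b are 99 and 97 bases long and 45.5% and 45.4% G or C. That of Mir152 is shorter, at 73 bases, and richer in G and C, at 61.6%. The longest stretch that any member hairpin has in common with another counted hairpin is 15 bases, between Mir148a and Mir148b, and no counted hairpin shares 20 bases with a member. In that respect the members are unlike 80 of the 340 detected genes, which share such a stretch.

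**Figure D1:**
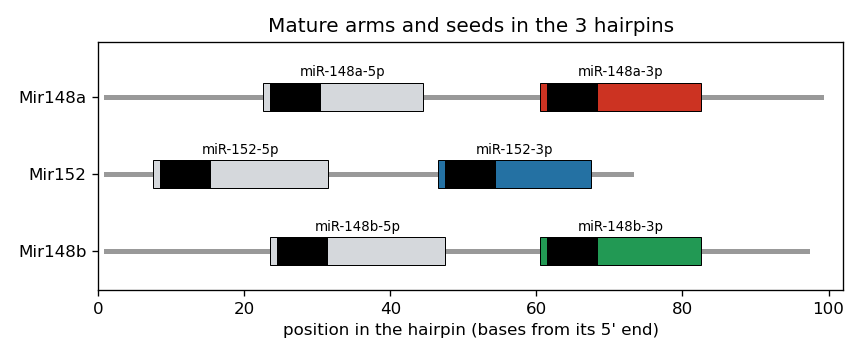
Map of the 3 hairpins, with the position in bases from the 5' end on the x axis and 1 line per gene. Boxes are the mature arms (grey for 5p, coloured for 3p) and black blocks are the seeds. The 3p arms of Mir148a and Mir148b both span bases 61 to 82, and that of Mir152 spans bases 47 to 67.

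The 3 genes lie on separate chromosomes, and coordinates are those of mm10. Mir148a (ENSMUSG00000065505.1, chr6:51269812-51269910, minus strand) overlaps no other annotated gene, and the nearest protein-coding gene, Nfe2l3, is 163 kb away. Mir148b (ENSMUSG00000065560.1, chr15:103285125-103285221, plus strand) lies in intron 1 of Copz1 in all 4 of its annotated transcripts. Mir152 (ENSMUSG00000065515.1, chr11:96850393-96850465, plus strand) lies in intron 1 of Copz2 in 3 of its 5 annotated transcripts and outside the other 2. Both hosts are on the strand of their microRNA, and they encode paralogous zeta subunits of the COPI coat, which carries vesicles from the Golgi to the endoplasmic reticulum. None of the members belongs to a microRNA cluster, since the nearest other counted microRNA gene is 65.2 kb from Mir148b, 213 kb from Mir152 and 352 kb from Mir148a.

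Reads on the gene strand summed to 3748432 in replicate 1 and 6305782 in replicate 2, and levels are given as CPM, counts scaled to 1000000 over the microRNA genes of a library. A count of 3, the limit that a count of 0 allows, equals 0.8003 CPM in replicate 1 and 0.476 CPM in replicate 2. Intervals are exact Clopper-Pearson 95% intervals and cover counting error only, since amplified reads are not independent molecules. A gene is called detected where each library gave it at least 10 counts, which holds for 340 genes, all 3 members among them. The gene counts leave out reads that map to several places, which made up 36.8% of the reads of replicate 1 and 48.1% of those of replicate 2. Unmapped reads were 16.0% and 11.5%. These shares move with the replicates, and their part in the differences below was not tested. The cardiac muscle markers hosted by myosin genes were present in both libraries, with 3678 and 7542 CPM of Mir499, 3795 and 1362 CPM of Mir208a and 794 and 3444 CPM of Mir208b.

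Mir148a, the intergenic member, was the most abundant of the family in each library. It had 1207 counts in replicate 1, or 322 CPM (interval 304 to 341), and 12551 counts in replicate 2, or 1990 CPM (1956 to 2025). Its mean of 1156 ± 1180 CPM (SD, n = 2) lies far from both libraries and describes neither. Among the 340 detected genes it ranked 109th by level in replicate 1 and 49th in replicate 2.

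Mir152, hosted by Copz2, came next in each library. It had 719 counts in replicate 1, or 192 CPM (interval 178 to 206), and 3564 counts in replicate 2, or 565 CPM (547 to 584). The mean was 379 ± 264 CPM (SD, n = 2). Its rank was 130 in replicate 1 and 85 in replicate 2.

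Mir148b, hosted by Copz1, was the least abundant and the most even. It had 296 counts in replicate 1, or 79.0 CPM (interval 70.2 to 88.5), and 767 counts in replicate 2, or 122 CPM (113 to 131). The mean was 100.3 ± 30.2 CPM (SD, n = 2), with rank 172 in replicate 1 and 154 in replicate 2. All 3 members were thus far above the limit of 3 counts, and each was higher in replicate 2.

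The order Mir148a, Mir152, Mir148b held in both libraries. Across libraries, the values of Mir148a and Mir152 overlapped, since Mir152 in replicate 2 (565 CPM) was above Mir148a in replicate 1 (322 CPM). Mir148b did not overlap with Mir152, as its higher value (122 CPM) was below the lower value of Mir152 (192 CPM). The family sum was 593 CPM in replicate 1 and 2677 CPM in replicate 2, which is 0.0593% (interval 0.0568% to 0.0618%) and 0.268% (0.264% to 0.272%) of the gene-strand counts. The family is therefore a minor part of the heart microRNAs assigned to genes in either library.

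**Figure D2:**
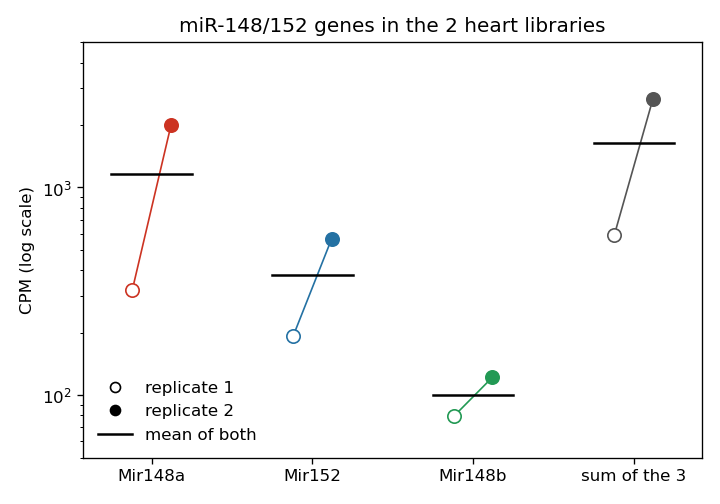
Levels of the 3 genes and of their sum, in CPM on a log axis. Open points are replicate 1, filled points replicate 2, and the black bars the means of both. Every filled point lies above its open point, by the widest gap for Mir148a (322 and 1990 CPM) and the narrowest for Mir148b (79.0 and 122 CPM).

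Almost no reads fell on the strand opposite to the members. The opposite-strand count was 0 for every member in both libraries, apart from 1 read of Mir152 in replicate 2, which is within the limit of 3 counts. The members' counts on both strands equalled those on the gene strand but for that read, so no reads of theirs were lost to an overlapping gene on the other strand.

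The makeup of the family differed between the libraries, a comparison within each library that no scaling between libraries affects. Mir148a took 54.3% of the family's counts in replicate 1 (interval 52.2% to 56.4%) and 74.3% in replicate 2 (73.7% to 75.0%). Mir152 took 32.4% (30.4% to 34.3%) and 21.1% (20.5% to 21.7%). The share of Mir148b was 13.3% (11.9% to 14.8%) and 4.54% (4.23% to 4.87%). The intervals of the libraries did not overlap for any member, but they treat reads as independent, which amplified reads are not. The shares use the counts of Mir148a, whose difference was known when the family was chosen, so the shift is a description. With 2 libraries of 1 group, which have a common donor identifier, a spread between animals cannot be told apart from one between libraries.

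**Figure D3:**
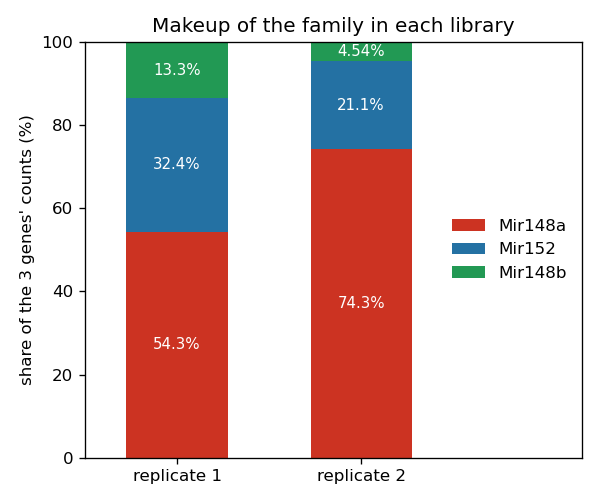
Share of each gene in the counts of the family, in percent, as stacked bars with 1 bar per library. Mir148a takes 54.3% in replicate 1 and 74.3% in replicate 2, while Mir152 and Mir148b take smaller shares in replicate 2 than in replicate 1.

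As ratios of counts, Mir148a exceeded Mir148b 4.08-fold in replicate 1 (interval 3.59 to 4.65) and 16.4-fold in replicate 2 (15.2 to 17.6). It exceeded Mir152 1.68-fold (1.53 to 1.84) and 3.52-fold (3.39 to 3.66). Mir152, the microRNA of the Copz2 intron, exceeded Mir148b, that of the Copz1 intron, 2.43-fold (2.12 to 2.79) and 4.65-fold (4.30 to 5.03). The ratio in replicate 2 over that in replicate 1 was 4.01 for Mir148a to Mir148b (exact conditional interval 3.45 to 4.65), 2.10 for Mir148a to Mir152 (1.90 to 2.32) and 1.91 for Mir152 to Mir148b (1.63 to 2.24). The more abundant member of each pair was thus also the one with the larger ratio between the libraries.

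After TMM scaling, which sets the libraries on a common scale from the bulk of the genes, Mir148a was 6.82-fold higher in replicate 2 than in replicate 1 (log2 ratio 2.77, interval 2.69 to 2.86). Mir152 was 3.25-fold higher (log2 ratio 1.70, interval 1.59 to 1.82). For Mir148b the ratio was 1.70-fold (log2 ratio 0.76, interval 0.57 to 0.96). The family sum was 4.99-fold higher in replicate 2 (log2 ratio 2.32, interval 2.25 to 2.38). These values led to the choice of the family, so no test is given. Of all 340 detected genes, 20.0% differed by at least 2-fold in either direction, 10.3% being higher and 9.71% lower in replicate 2. Of the 3 members, 2 were at least 2-fold higher, and nothing is read from that count. By log2 ratio Mir148a ranked 2nd, Mir152 11th and Mir148b 54th of the 340, and the log2 ratios of all detected genes had a median of -0.05 and an SD of 0.92.

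**Figure D4:**
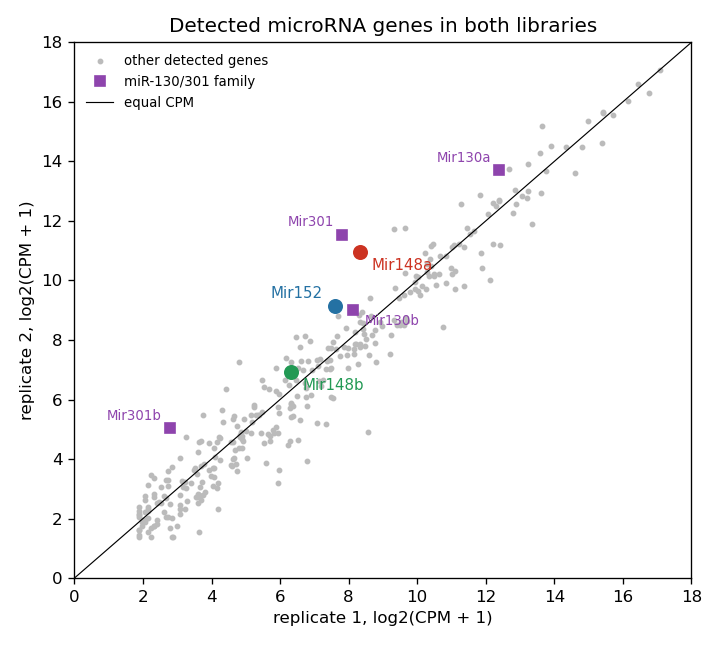
Level of each of the 340 detected genes in replicate 1 (x axis) and replicate 2 (y axis), both as log2(CPM + 1), with the line of equal CPM. The 3 members (circles) and the miR-130 and miR-301 family (squares) lie above the line, with Mir148a and Mir301 far from it.

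The genes next to the members in mean level were read for their ratios too. Mir541 and Mir15a, just above and just below Mir148a in mean CPM, had log2 ratios of -0.55 and 0.21. Mir132 and Mir30b, on either side of Mir152, had -0.29 and 0.32. Mir421 and Mir5099, on either side of Mir148b, had 0.71 and -0.03. Those beside Mir148a and Mir152 thus lay far below their member in ratio, while Mir421 was close to Mir148b (0.76).

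The genes most like each member over both libraries were found by the distance in log2(CPM + 1), over 2 points only, so likeness here is a description of levels. Mir301 was the gene most like Mir148a (distance 0.79), with 223 CPM in replicate 1 and 2977 CPM in replicate 2, followed by Mir195a (1.24) and Mir181c (1.48). Mir195a had 634 and 3377 CPM and Mir181c had 796 and 1217 CPM. The log2 ratios were 3.88 for Mir301, 2.56 for Mir195a and 0.76 for Mir181c, so only Mir195a was close to Mir148a (2.77) in ratio. Mir16-2 (0.35), Mir130b (0.57) and Mir144 (0.79) were nearest to Mir152, and each was less uneven between the libraries, with log2 ratios of 1.26, 1.00 and 0.66. Nearest to Mir148b were Mir421 (0.23), Mir203 (0.32) and Mir186 (0.32), with log2 ratios of 0.71, 1.08 and 0.66. Between the members the distances were 1.96 for Mir148a and Mir152, 2.55 for Mir152 and Mir148b and 4.50 for Mir148a and Mir148b. The nearest genes were picked as the closest of all other detected genes, so nothing is read from their smaller distances.

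The miR-130 and miR-301 family shares part of its seed with the members. Its seed is offset by 1 base, so that the 6 bases AGUGCA, in capitals here, begin at base 2 where they begin at base 3 in miR-148 and miR-152.
miR-148a-3p: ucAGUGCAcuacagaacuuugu
miR-301a-3p: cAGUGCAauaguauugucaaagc
miR-130a-3p: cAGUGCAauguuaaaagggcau
miR-130b-3p: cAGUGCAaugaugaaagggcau
After these 6 bases miR-148a-3p parts from the miR-130 and miR-301 sequences, which go on alike for a few bases. Because targeting depends on the whole seed, the offset makes miR-130 and miR-301 a separate family, known among other roles for proliferative signalling in vascular cells.

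Of the 1018 counted genes with a RefSeq mature sequence matched by symbol, a set without Mir301b, 10 outside the family have one that shares at least 6 consecutive bases of the seed within bases 2 to 8, and 5 of them were detected. Mir301 had 835 counts in replicate 1 and 18770 in replicate 2, the highest log2 ratio of all detected genes (3.88). Mir130a, the most abundant of these genes, had 5371 and 13314 CPM (log2 ratio 1.45), and Mir130b had 281 and 510 CPM (1.00, just under 2-fold). Mir1960, with 17 and 31 counts, had a log2 ratio of 0.24. Mir350, whose 5p arm carries the 6 bases, ran the other way, with 248 and 181 CPM and a log2 ratio of -0.31. Relatives by 6 bases of the seed were therefore not all higher in replicate 2. The other 5, Mir130c, Mir291b, Mir6341, Mir6389 and Mir721, had no count in either library.

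Beside this family, the list of 6 miR-130 and miR-301 genes had 4 detected, of which 3 were at least 2-fold higher in replicate 2 (Mir301, Mir301b and Mir130a), against 10.3% of all detected genes. The median log2 ratio was 2.00, compared with 1.70 in the miR-148 and miR-152 family and -0.05 over all detected genes. Mir301b had 22 and 201 counts (log2 ratio 2.55). Of the 3 miR-101 genes, 2 were detected and both were at least 2-fold higher, Mir101b with 87.5 and 275 CPM and Mir101a with 26.7 and 154 CPM. These lists were chosen with the differences of Mir301 and Mir101a known, so their counts are descriptions.

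Marker lists of cell types in or near the heart were read beside the family, because miR-148a is known from liver and from lymphocytes. The liver list (Mir122, Mir192, Mir194-1 and Mir194-2), all of it detected, summed to 98.2 CPM in replicate 1 and 136 CPM in replicate 2. The part of liver cells in the level of Mir148a was not tested. Its hepatocyte-defining member, Mir122, had 57.9 and 77.7 CPM, and 1 of the 4 genes, Mir194-1, was at least 2-fold higher in replicate 2. The leukocyte list, detected in full, summed to 2947 and 3039 CPM, and 2 of its 5 genes were at least 2-fold higher in replicate 2. These were Mir142, a marker of blood cells at 117 and 249 CPM, and Mir223, a marker of myeloid cells at 20.5 and 79.9 CPM. Mir150, a marker of mature lymphocytes, had 392 and 672 CPM. The most abundant genes of the list, Mir155 and Mir146, were lower in CPM in replicate 2, at 1430 and 1191 CPM and at 988 and 846 CPM. Of the 5 genes of the pancreas and gut list, 2 were detected, Mir216b had no count and Mir216a had 0 and 3 counts, and the sum of 112 and 227 CPM came mostly from Mir215. The 7 epithelial genes, all detected, summed to 555 and 698 CPM, and 2 were at least 2-fold higher. Over all detected genes 10.3% were at least 2-fold higher in replicate 2, and nothing is read from the counts of such short lists.

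Among the resident cells of the heart, the fibroblast and mesenchymal list summed to 3934 and 7945 CPM, with 2 of 4 detected genes at least 2-fold higher in replicate 2, Mir21a and Mir199a-2, while Mir199b had 108 and 83.4 CPM. The cardiac muscle list summed to 8318 and 12455 CPM, with 3 of 6 detected genes at least 2-fold higher and 1, Mir208a, at least 2-fold lower. Nearly all of that sum came from Mir499, Mir208a and Mir208b. Mir1a-1, Mir133a-1 and Mir133a-2 stayed at 27 counts or fewer in each library. Reads mapping to several places are absent from these counts, and what they would add to any list was not tested. The sums therefore do not rank the cell types by level. The endothelial list summed to 89739 and 100994 CPM and the smooth muscle list to 44790 and 53313 CPM, with no detected gene 2-fold apart in either. The erythroid list summed to 10216 and 8848 CPM, also with none. The log2 ratio of the sum was 2.32 for the miR-148 and miR-152 family. Among the cell type lists the largest were 1.16 for the fibroblast and mesenchymal list and 1.15 for the pancreas and gut list. The family was chosen with its difference known, so nothing is read from its larger value. Single markers varied within lists, with log2 ratios of 2.26 for Mir208b, 2.09 for Mir223 and -1.34 for Mir208a, beside 1.70 for Mir152. The part of the cell types in the difference of the family was not tested.

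**Figure D5:**
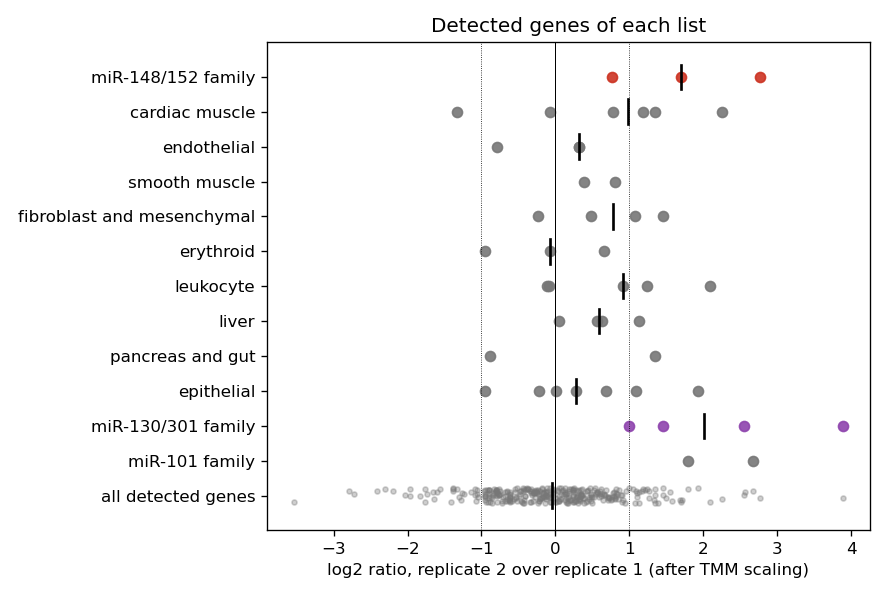
Log2 ratio of replicate 2 over replicate 1 after TMM scaling for the detected genes of each list, 1 point per gene, with a black bar at the median of lists with at least 3 detected genes and dotted lines at 2-fold. The 3 members lie at 0.76, 1.70 and 2.77, to the right of the median of all detected genes at -0.05.

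The base composition of the hairpins moved weakly with the ratio between the libraries. Over the 340 detected genes, the content of G and C correlated with the log2 ratio at a Pearson r of -0.27 and a Spearman rho of -0.26, a description over genes that all come from the same pair of libraries. Mir148a (45.5%) and Mir148b (45.4%) were below the median content of 50.6%, and Mir152 (61.6%) was above it although its ratio was the second largest of the family. The part of base composition in the difference was not tested.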

How the data were processed

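For each of the 2 libraries the authors deposited unnormalized read counts, 1 value per microRNA gene and strand. Build mm10 and annotation GENCODE M21 are named in the deposited text beside the tables. The alignment and counting software was not given in the sources used here. The strand of each column was inferred from the values, and the gene-strand column was used. Each table also holds 4 entries without a gene name, which were kept out of the totals. Reads outside the genes were 4.78% and 3.43% of all reads in replicates 1 and 2.

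All 2202 identifiers were found in GENCODE M21. Mature sequences came from RefSeq (GRCm38.p6), which matched 1018 counted and 307 detected genes by symbol, and whose member hairpins equal those of GENCODE. Scaling used TMM in edgeR 4.0.16 (R 4.3.3), fitted on the whole table, with DESeq2 1.42.0 size factors and total counts as alternatives. Log2 ratios used a prior of 0.5 counts. Intervals used SciPy 1.17.1. With 1 group there was no contrast to test. The computation of the ratios was checked on simulated counts with known ratios.

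Named genes were the members, detected genes sharing 6 seed bases, the 3 genes nearest to each member and its neighbours in mean CPM. Genes of lists named beyond this rule were chosen after their values were seen. The members and lists were chosen with earlier results of these data known.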

Additional observations from a re-analysis of the deposited data

How the results depend on the processing

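The log2 ratio of every member stayed above 0 under each alternative run. With total counts as the scaling, which lowers all log2 ratios by 0.14, it was 2.63 for Mir148a and 1.56 for Mir152, below their counting intervals, and 0.62 for Mir148b. With DESeq2 size factors it was 2.85, 1.78 and 0.84. The number of genes at least 2-fold apart was 68 with the filter of 10 counts, 259 with at least 1 count in either library and 39 with at least 100 counts in both, where fewer genes are counted. With all reads as the total the means were 437 CPM for Mir148a, 145 CPM for Mir152, 39.3 CPM for Mir148b and 621 CPM for the family sum. With the both-strand column, whose total is smaller, they were 1596, 521, 138 and 2255 CPM. Of the list medians, the endothelial one turned from 0.32 to -0.24 with at least 1 count in either library. That filter lets in Mir126b, with 3 and 1 counts. The erythroid median turned from -0.07 to 0.0029 with DESeq2 size factors. List medians left with fewer than 3 genes were not computed. Leaving out either library gave 322 to 1990 CPM for Mir148a, 192 to 565 CPM for Mir152, 79.0 to 122 CPM for Mir148b and 593 to 2677 CPM for the family sum. No paired analysis was possible because the samples form 1 group. Depth limits the values of Mir148b most, with 296 counts in replicate 1.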

Other observations

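Families that share a seed were compared for how evenly their genes differed between the libraries, a description added after the data were seen. Detected genes whose RefSeq mature sequences share bases 2 to 8 formed 14 sets of at least 3 genes, some of them overlapping. The range of the log2 ratio within a set had a median of 1.66 and ran from 0.33 to 3.34. The miR-148 and miR-152 family, with a range of 2.01, was the fifth widest. The upper end of its range is Mir148a, whose difference was known when the family was chosen, so nothing is read from that rank. The sets held 3 to 11 genes, and a range tends to grow with that number. Among the 5 sets of exactly 3 genes, only that of Mir130a, Mir130b and Mir301 was wider than the family (2.88). That set is without Mir301b (log2 ratio 2.55), which was detected but had no RefSeq sequence matched by symbol. The widest of all, around Mir15a and Mir195a (3.34), had 7 genes. The order of levels was the same in both libraries in 9 of the 14 sets, miR-148 and miR-152 among them, and in 5 sets every detected gene had a log2 ratio above 0.

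By location, the 161 detected genes inside a protein-coding gene on the same strand, as Mir148b and Mir152 are, had a median log2 ratio of -0.0022. For the other 179, as Mir148a is, it was -0.07. Genes whose hairpins share 20 bases with another had a median of 0.14, against -0.12 for the 260 that share none, the group that holds all 3 members.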
